A study of Homo sapiens with 6 samples.

Results

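The genes described here encode the cytosolic translation factors of T3M4, an established human pancreatic ductal adenocarcinoma line, profiled by RNA sequencing with and without knockdown of METTL13. They were chosen by symbol, by a rule that names no measured value but was written with earlier results of these data known: every gene of the table named EIF1 to EIF6, EEF1 or EEF2 and what follows, together with ETF1, GSPT1, ABCE1, PABPC1, DHPS and DOHH, and without the eIF2 kinases, the eEF1A genes EEF1A1 and EEF1A2 and the eEF1A and eEF2 methyltransferases. There were 63 such genes among 16617 in the table. EIF1AY, a Y-linked gene, is counted among the 63 and its values are not given, which leaves 62 described.

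The 2 groups were 3 libraries of T3M4 cells with the guide RNA sgControl (genotype WT in the labels) and 3 of T3M4 cells with sgMETTL13 (genotype METTL13 knockdown), all in the same medium with serum. The labels do not say how many guides or clones were used, nor whether libraries came from separate cultures, so the test may measure technical spread. METTL13 is the methyltransferase that modifies eEF1A, and the RNA profile was made alongside protein measurements that were not used here. Each value is an average over the 3 libraries of a group as deposited, so no value or spread of a single library can be shown, and whether libraries of the groups overlap cannot be stated. Average estimated reads came to a total of 15240866 for sgControl and 15247500 for sgMETTL13. The knockdown itself was visible, with the authors' average TPM (a relative level scaled for transcript length and depth) of METTL13 at 39.9 in sgControl and 5.63 in sgMETTL13. All 6 epithelial markers examined were present, with KRT19 at an authors' average of 2107 TPM in sgControl, and 3 of 4 immune markers, PTPRC, CD3E and MS4A1, were not among the table's genes, while CD68 stood at 40.9 TPM.

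Translation starts when eIF2 carries the initiator tRNA to the small ribosomal subunit, eIF3 and eIF1 hold that subunit open, and eIF4F recruits it to the cap of an mRNA. The subunit scans to a start codon, eIF5 and eIF5B complete the joining of the large subunit, and elongation follows with eEF1A, its exchange factor eEF1B, eEF2 and eIF5A. At a stop codon eRF1 and eRF3 release the protein and ABCE1 splits the ribosome. Cancer cells are known to raise several of these factors, and eIF4E and its inhibitor 4E-BP1 are the best studied of them.

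Few transcripts of translation factors changed, and those by little. The authors' deposited table gave 3 of 63 genes an adjusted p below 0.05 (4.76%), against 3.8% of all genes. All 3 were higher in sgMETTL13, where 2.73% of all genes were higher, and 0 were lower, where 1.08% of all genes were. They were EIF1 (19.8% higher), the eIF4E inhibitor EIF4EBP1 (14.9%) and the eIF3 subunit EIF3B (12.1%). A share of this size is near the background, and is no result about the translation factors as a group. At an unadjusted p under 0.05 there were 9 of 63 genes (14.3%), 7 higher and 2 lower, against 12.4% of all genes. Abundant genes are those with 205 mean reads, the median of all genes, or more; of these, 3 of 56 translation factor genes (5.36%) passed, against 7.04% of all genes of that abundance.

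The intervals were narrow. For each gene a standard error was derived from the log2 fold change and p-value of the authors' deposited table, with a 95% interval, and both are called implied. Of the 56 abundant translation factor genes, 51 (91.1%) had an implied 95% interval that stayed inside a 1.25-fold change in either direction, and 66.2% of all genes of that abundance did. The translation factors were also read more deeply, with a median of 3288 mean reads against 743. The 5 exceptions were EIF1, EIF3CL, EIF3J, EIF4E2 and EEF2K. The median absolute log2 fold change was 0.046 among the abundant translation factor genes and 0.089 among all abundant genes. A median change of 1.15-fold, or 0.21 on the log2 scale, would have been needed for an abundant translation factor gene to pass, and from 0.14 for EEF2 to 0.84 for EIF3CL. Over the 63 genes the median log2 fold change of the authors' deposited table was just below 0 (-0.0046, quartiles -0.04 and 0.06), and that over all genes was 0.0014.

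**Figure D1:**
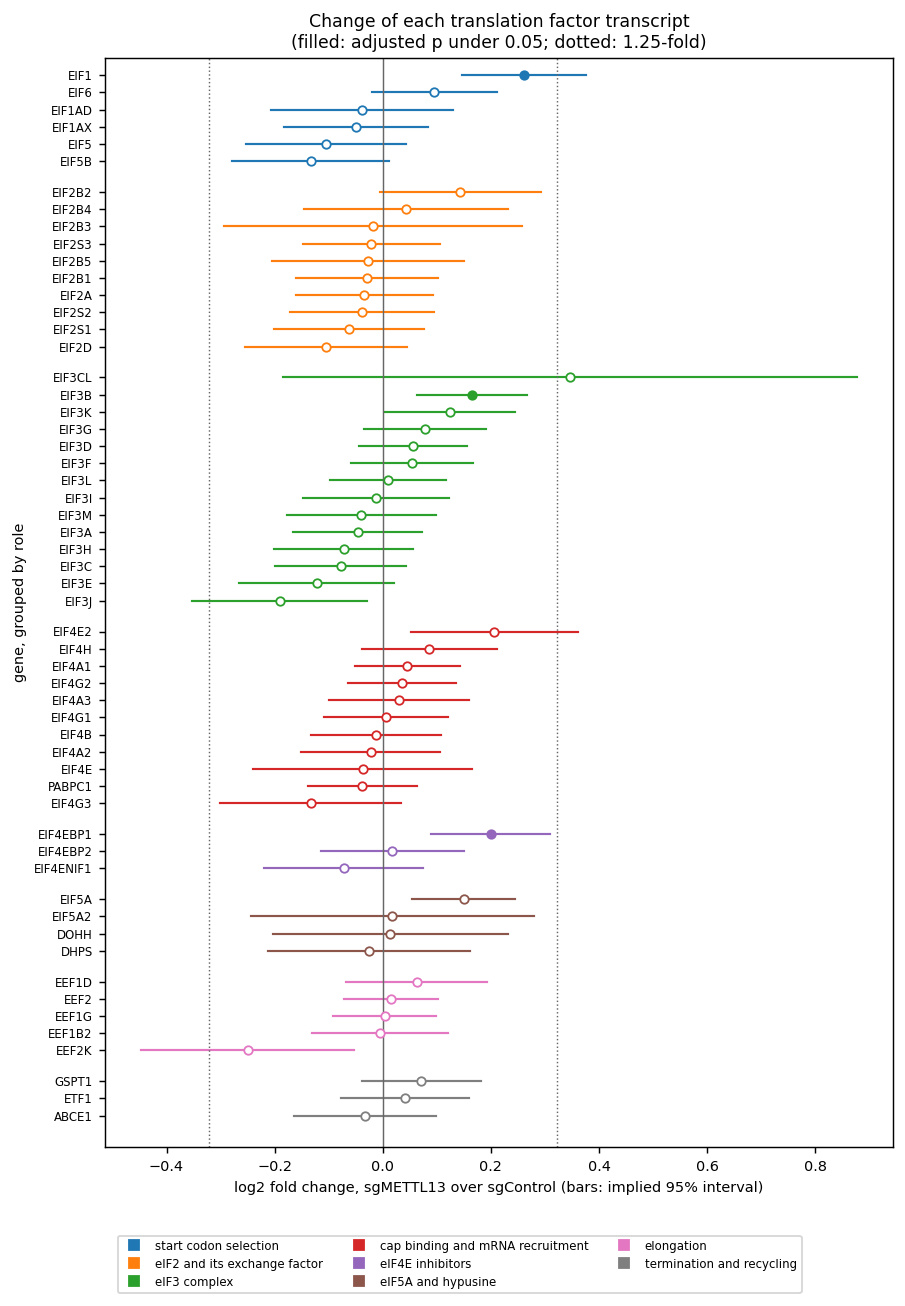
Log2 fold change of the 56 abundant translation factor genes, sgMETTL13 over sgControl, from the authors' deposited table, grouped by role. Bars are implied 95% intervals, filled points have an adjusted p under 0.05 and dotted lines mark a 1.25-fold change; the intervals of 51 genes lie between the dotted lines, and the 3 filled points are EIF1, EIF3B and EIF4EBP1.

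**Figure D2:**
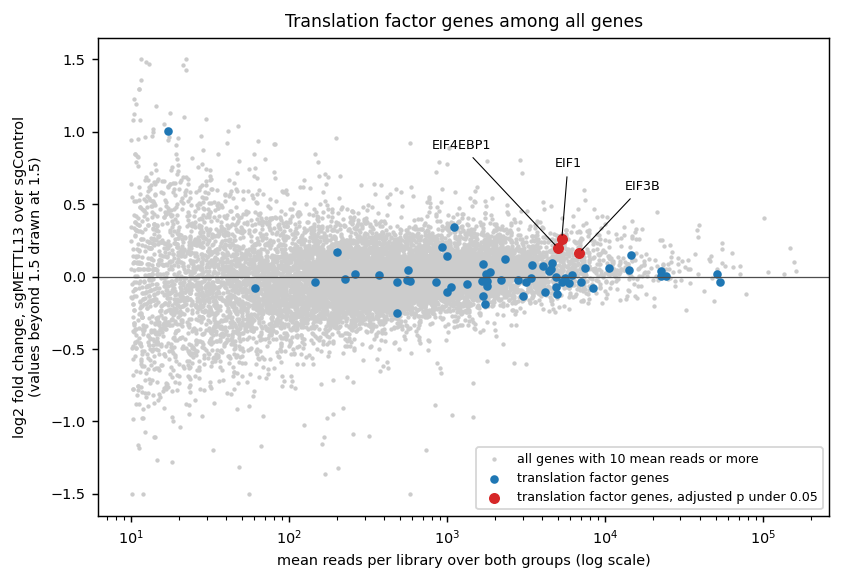
Log2 fold change against mean reads per library (log axis) for all genes with at least 10 mean reads in grey and the translation factor genes in colour, from the authors' deposited table. The translation factor genes lie along the zero line at high read counts, and the 3 red points, all above it, passed the test.

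The group named start codon selection, in which EIF5B, EIF6 and EIF1AD were also counted, included EIF1, the largest change among the 3 genes that passed. EIF1, the small protein that keeps the ribosome scanning until a start codon in a good context is found, rose from an authors' average of 509 to 580 TPM and from 4933 to 5702 reads. Its log2 fold change in the authors' deposited table was 0.26, with an implied standard error of 0.058, an implied 95% interval from 0.15 to 0.38 and an adjusted p of 0.000643. EIF1B, a second eIF1 gene, was expressed at 26.7 TPM in sgControl and 28.5 in sgMETTL13, so that EIF1 exceeded it 19.1-fold and 20.3-fold. EIF1B had a log2 ratio of 0.17 per the authors' deposited table, and with 193 and 210 reads its implied interval ran from -0.14 to 0.48, which includes the value of EIF1.

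The other genes of the start codon selection group did not pass the test. EIF5, the GTPase activator of eIF2 that competes with eIF1 at the start codon, averaged 95.7 TPM in sgControl and 84.6 in sgMETTL13, and EIF5B, the GTPase of subunit joining, 89.5 and 77.6 TPM. Their log2 fold changes in the authors' deposited table were -0.10 (implied 95% interval from -0.25 to 0.04) and -0.13 (-0.28 to 0.01; adjusted p = 0.484). EIF1AX, the X-linked eIF1A gene, had 41.0 and 37.7 TPM and a log2 ratio of -0.05 per the authors' deposited table. EIF6, which keeps the ribosomal subunits apart, was the most abundant of this group in sgControl at 555 TPM, with 565 TPM in sgMETTL13 and a log2 ratio of 0.10 per the authors' deposited table. EIF1 overtook EIF6 between the groups, and no spread of levels is available to say whether that order differs.

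The start codons of these genes are shown because eIF1 keeps the ribosome scanning until one in a good context is found. Each line gives 12 bases before the annotated start codon, the codon in capitals and 6 bases after it, on the coding strand, from 1 GENCODE 29 transcript per gene.
EIF1: gaatcgtatcgtATGtccgct
EIF1B: cactagtatcgcATGtccact
EIF3B: agcgttgggcccATGcaggac
EIF5: taataagccaaaATGtctgtc
EIF1AX: gccgccaccgccATGcccaag
A favourable context has A or G at the third base before the codon and G directly after it. EIF1, EIF1B and EIF3B have neither, and they are the 3 genes without either among 61 translation factor genes with an annotated start codon (4.92%; 7.14% of 15540 genes). Both features were present in 29 of the 61 genes (47.5%), and in 43.6% of all genes. This sorting of the genes was made after their values were seen, and EIF1 and EIF3B are among the 3 genes that passed. Over the whole table, 49 of the 1110 genes with neither feature passed in either direction (4.41%), against 3.93% of all 15540, and the median log2 fold change of the 1110 was -0.0015.

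The 11 genes grouped under eIF2 and its exchange factor eIF2B include the separate tRNA carriers EIF2A and EIF2D. Of the 11, 0 passed the test of the authors' deposited table, and 0 had an unadjusted p under 0.05 (12.4% of all genes). With 3.8% of all genes called, so small a group says little by its count. The log2 fold change was below 0 in 9 of the 11 genes, with a median of -0.03 over the 11, and in 8278 of all 16617 genes. The 9 include EIF2S3B, with under 1 read in sgControl and 0 in sgMETTL13. TPM was lower in sgMETTL13 in 10 of the 11, as it was in 63.8% of all genes. The subunits of eIF2, the GTPase that delivers initiator tRNA, were unequal in level. EIF2S2 (beta) averaged 452 TPM in sgControl and 414 in sgMETTL13, EIF2S3 (gamma) 84.8 and 79.4, and EIF2S1 (alpha, whose phosphorylation halts initiation) 58.1 and 52.9. EIF2S2 thus stood 7.78-fold above EIF2S1 per length in sgControl and 7.82-fold in sgMETTL13. In sgControl 1 TPM stood for 15.9 reads in EIF2S2 and 31.8 in EIF2S1, so that ratio rests on annotated lengths. The log2 fold changes of EIF2S2, EIF2S3 and EIF2S1 in the authors' deposited table were -0.04, -0.02 and -0.06. Each had an implied interval inside a 1.25-fold change.

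Among the 5 subunits of eIF2B, which recharges eIF2 with GTP, levels in sgControl ran from 18.2 TPM for EIF2B3 to 122 for EIF2B1. EIF2B2, the beta subunit, came closest to the threshold, with 85.2 and 89.5 TPM, a log2 ratio of 0.14 per the authors' deposited table (implied bounds -0.0056 and 0.29) and an adjusted p of 0.443. EIF2D, which can bring initiator tRNA without eIF2, had 67.9 and 60.4 TPM and a log2 ratio of -0.11 per the authors' deposited table (adjusted p = 0.712). EIF2A, another tRNA carrier, had 274 and 256 TPM. EIF2S3B, a copy of the gamma subunit gene, was listed at 0 reads in sgMETTL13 and at under 1 read in sgControl.

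In the eIF3 complex, the scaffold of the small subunit, EIF3B was the 1 of 14 genes that passed, where 3.8% of all genes did. EIF3B, a core subunit of the complex, rose from an authors' average of 283 to 301 TPM and from 6590 to 7129 reads. The log2 fold change in the authors' deposited table was 0.16, with an implied standard error of 0.052, an implied interval from 0.064 to 0.27 and an adjusted p of 0.0405. Its call was lost when fold changes were centred on the median of abundant genes (0.15, adjusted p = 0.0688) and when a trend with GC content and length was removed (0.11, adjusted p = 0.392). Of the other subunits, EIF3J, the loosely bound subunit that helps place eIF3 on the ribosome, had 98.2 TPM in sgControl and 81.8 in sgMETTL13, with a log2 ratio of -0.19 per the authors' deposited table (implied bounds -0.35 and -0.03) and an adjusted p of 0.241. EIF3K had 360 and 373 TPM with a log2 fold change of 0.12 and EIF3E 471 and 412 TPM with -0.12 in the authors' deposited table, and neither passed.

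The levels of the subunits differed in both groups. From EIF3H (549 TPM in sgControl, 497 in sgMETTL13) and EIF3D (510 and 504) down to EIF3I (248 and 233) there were 11 genes. The large subunit EIF3A (117 and 108 TPM), EIF3J and EIF3CL lay below them, with EIF3H 4.69-fold above EIF3A in sgControl and 4.61-fold in sgMETTL13. These ratios rest on annotated lengths, as 1 TPM stood for 51.9 reads in EIF3A and 9.30 in EIF3H in sgControl. EIF3CL is a near-identical copy of EIF3C, and the reads of both genes were divided between them. EIF3C averaged 8809 reads in sgControl and 8051 in sgMETTL13, and EIF3CL 994 and 1221. Their log2 fold changes in the authors' deposited table, -0.08 and 0.35, have opposite signs, but EIF3CL has an implied interval from -0.19 to 0.88. Summed, the pair had 9803 and 9272 reads, a log2 fold change of -0.03 on the same scale, and the share of EIF3CL went from 10.1% to 13.2% of the reads.

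**Figure D3:**
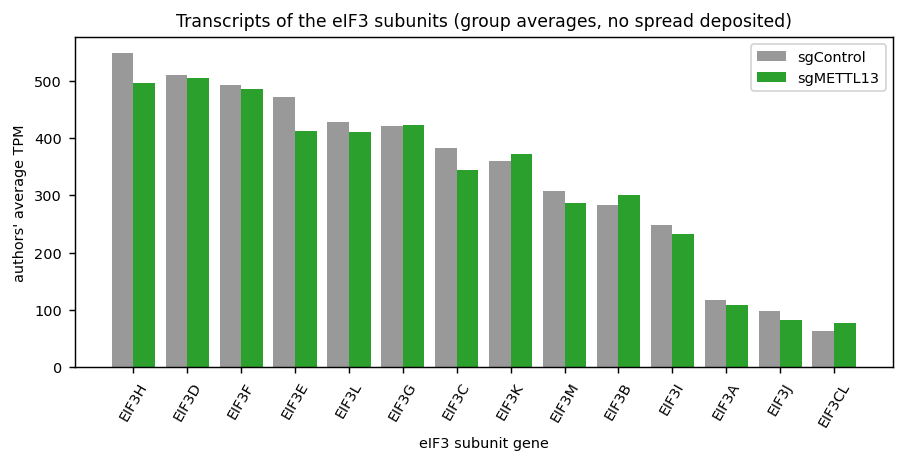
Authors' average TPM of the 14 eIF3 subunit genes in sgControl (grey) and sgMETTL13 (green), ordered by the level in sgControl, with no error bars, as each value is a group average. In both groups 11 genes stand above EIF3A, EIF3J and EIF3CL.

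The factors that bind the cap and recruit the ribosome had 0 of 12 genes called in the authors' deposited table, against 3.8% of all genes. At an unadjusted p under 0.05 there was 1, against 12.4% of all genes. That gene was EIF4E2, which encodes the cap-binding protein 4EHP that represses translation, with 89.7 TPM in sgControl and 101 in sgMETTL13, a log2 ratio of 0.21 per the authors' deposited table (implied bounds 0.05 and 0.36) and an adjusted p of 0.140. The cap-binding subunit EIF4E had 494 and 465 reads but an authors' average of only 5.54 and 5.13 TPM, since 1 TPM stood for 89.2 reads in this gene and for a median of 15.6 reads among translation factor genes; the GENCODE transcript used here for EIF4E is 11523 bases long. Its level per length therefore rests on the annotated length. EIF4E had a log2 ratio of -0.04 per the authors' deposited table (implied bounds -0.24 and 0.17).

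The scaffold EIF4G1 averaged 540 TPM in sgControl and 515 in sgMETTL13, and the helicase EIF4A1, which unwinds the leader of the mRNA, 1018 and 999 TPM. Their log2 fold changes were 0.0056 and 0.05 in the authors' deposited table, each with an implied interval inside a 1.25-fold change. EIF4G3, the second scaffold gene, had 45.6 and 37.6 TPM, a log2 ratio of -0.13 per the authors' deposited table and an adjusted p of 0.613. EIF4A2 had 205 and 192 TPM, EIF4A3, the helicase of the exon junction complex, 146 and 142, and EIF4B and EIF4H, which assist the helicase, 185 and 174 and 88.0 and 88.9. EIF4G2, which encodes a scaffold that lacks the eIF4E site, had 766 and 746 TPM. PABPC1, the poly(A)-binding protein that joins the tail to eIF4G, was the most abundant of the 62 genes described in both groups, at 2558 and 2366 TPM. Its log2 ratio was -0.04 per the authors' deposited table. EEF1A1, which the rule leaves out, stood higher, at 5113 and 4924 TPM.

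Of the 4 genes for inhibitors of eIF4E, where 3.8% of all genes passed, the 1 that did was EIF4EBP1. It encodes 4E-BP1, which sequesters eIF4E until mTOR phosphorylates it, and it rose from an authors' average of 785 to 857 TPM and from 4748 to 5261 reads. The log2 fold change in the authors' deposited table was 0.20, with an implied standard error of 0.056, an implied interval from 0.09 to 0.31 and an adjusted p of 0.0143. With the GC and length trend removed it stood at 0.05 and lost its call (adjusted p = 0.953). Per length, EIF4EBP1 exceeded EIF4E 142-fold in sgControl and 167-fold in sgMETTL13, with the limit on the level of EIF4E given above. EIF4EBP2 had 30.6 and 29.4 TPM and a log2 ratio of 0.02 per the authors' deposited table. EIF4ENIF1, a shuttling partner of eIF4E, had 38.6 and 34.8 TPM and a log2 ratio of -0.07 per the authors' deposited table (adjusted p = 0.885). EIF4EBP3 had about 1 read in each group. It overlaps the readthrough gene ANKHD1-EIF4EBP3, which held 99.9% of the 2274 reads of sgControl and 2154 of sgMETTL13 assigned to either gene, and how many of those came from the shared sequence was not tested.

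GC content separated the 3 genes that passed. The GENCODE transcript of EIF4EBP1 has a GC content of 65.5%, that of EIF3B 56.7% and that of EIF1 46.4%, against a median of 47.0% among the 62 translation factor genes. A trend of the log2 fold change in GC content and transcript length was fitted over all genes with both values, and its strength was not measured. With that trend removed 2.67% of 16208 genes passed, where 3.8% of all 16617 genes passed as deposited. EIF1 was then the 1 translation factor gene that passed of 63, with a log2 fold change of 0.25 and an adjusted p of 0.00131. The removal also recentres the fold changes, and whether the trend is technical was not tested. Nor was it tested whether the 1 GENCODE transcript used per gene is the form expressed. For EIF1 that transcript is 2330 bases long, and 1 TPM stood for 9.69 reads in sgControl. For EIF3D it is 2155 bases long, and 1 TPM stood for 14.6 reads.

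**Figure D4:**
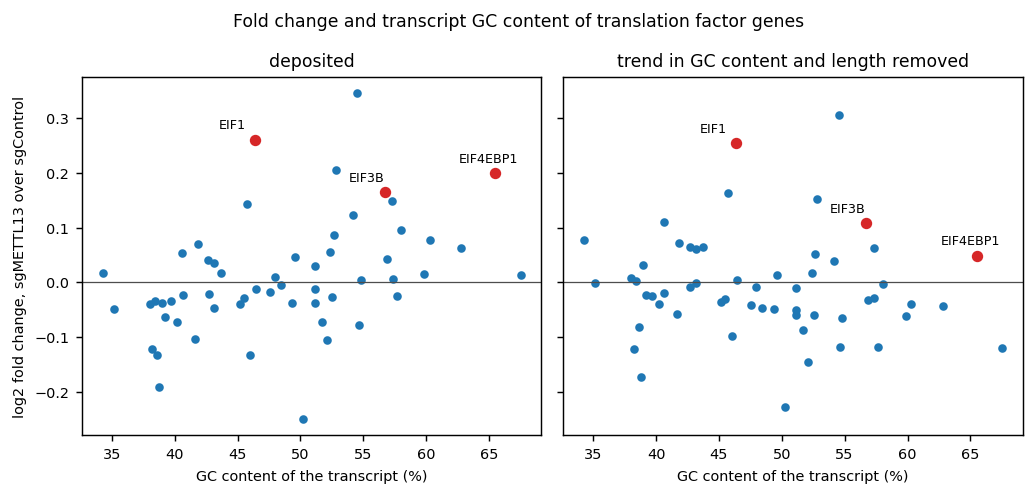
Log2 fold change of the 56 abundant translation factor genes against the GC content of 1 GENCODE transcript per gene, as in the authors' deposited table (left) and with the trend of all genes in GC content and length removed (right). Red points passed the test on the left; EIF1 stays at 0.25 on the right, EIF3B moves to 0.11 and EIF4EBP1 to 0.05.

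EIF1 lies on chromosome 17 from 41688885 to 41692668, EIF3B on chromosome 7 from 2354086 to 2380745 and EIF4EBP1 on chromosome 8 from 38030341 to 38060365, all on the plus strand of GRCh38 as annotated by GENCODE 29. The 62 genes lie on 19 chromosomes.

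The genes of eIF5A and of its hypusine modification, a change of 1 lysine that eIF5A needs to relieve stalled ribosomes, numbered 5. Of these, 0 were called in the authors' deposited table, against 3.8% of all genes. At an unadjusted p under 0.05 there were 2, EIF5A and EIF5AL1, against 12.4% of all genes. So small a group says little by its count. The reads of these 2 genes cannot be separated with certainty, so they may not be separate results. EIF5A was just outside the threshold for the adjusted p. It averaged 1455 TPM and 14162 reads in sgControl and 1534 TPM and 15158 reads in sgMETTL13, with a log2 ratio of 0.15 per the authors' deposited table, an implied interval from 0.05 to 0.24 and an adjusted p of 0.0541. With the GC and length trend removed it stood at 0.06 (adjusted p = 0.810). EIF5AL1, an intronless copy whose reads cannot be told apart with certainty from those of EIF5A, had 11.7 and 22.5 reads, a log2 ratio of 1.00 per the authors' deposited table (implied bounds 0.01 and 2.00) and an adjusted p of 0.396. It held 0.0826% of the reads of the pair in sgControl and 0.148% in sgMETTL13. The enzymes DHPS and DOHH, which build hypusine, had 55.8 and 52.0 TPM and 26.6 and 26.4 TPM, with log2 ratios of -0.03 and 0.01 per the authors' deposited table. EIF5A2 stood 236-fold below EIF5A per length in sgControl. There 1 TPM stood for 42.5 reads in EIF5A2 and 9.73 in EIF5A, so that ratio rests on annotated lengths.

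The 6 elongation factor genes included the most abundant of the 62 genes described after PABPC1. Of the 6, 0 passed, against 3.8% of all genes, and 1 had an unadjusted p under 0.05, against 12.4%. EEF2, the translocase, averaged 2168 TPM in sgControl and 2082 in sgMETTL13, with a log2 ratio of 0.02 per the authors' deposited table and the narrowest interval of all translation factor genes (-0.07 to 0.10). The subunits of eEF1B, which reloads eEF1A with GTP, were EEF1G at 2178 and 2076 TPM, EEF1D at 1054 and 1042 and EEF1B2 at 787 and 743. Their log2 fold changes in the authors' deposited table were 0.0036, 0.06 and -0.0046, the second with an adjusted p of 0.892. For comparison, EEF1A1, the main gene of the METTL13 substrate, averaged 5113 and 4924 TPM, 2.36-fold the level of EEF2 in both groups. EEF2K, the kinase that inhibits eEF2, had the lowest fold change of the abundant translation factor genes, with 528 and 429 reads, 12.9 and 11.4 TPM, a log2 ratio of -0.25 per the authors' deposited table (implied bounds -0.45 and -0.05) and an adjusted p of 0.181.

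None of the 3 termination and recycling genes passed, and 0 had an unadjusted p under 0.05 in the authors' deposited table. Of all genes, 3.8% and 12.4% did. ETF1 (eRF1, which reads stop codons) averaged 155 TPM in sgControl and 151 in sgMETTL13, and GSPT1 (its GTPase partner eRF3) 72.4 and 72.3 TPM. ABCE1, the ribosome-splitting ATPase, had 57.4 and 53.3 TPM. Their log2 fold changes were 0.04 (adjusted p = 0.961), 0.07 (adjusted p = 0.760) and -0.03 in the authors' deposited table, and all 3 implied intervals stayed inside a 1.25-fold change.

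Many mRNAs of the translation machinery start with a C and a run of pyrimidines, the TOP motif, through which mTOR and LARP1 control their translation. The first bases of 4 TOP mRNAs, those in which such a run was found, are shown with those of EIF1 and EIF3B, which passed the test. Each line holds 15 bases before and 15 from the transcript start in the RefSeq table for GRCh38.p14, 5′ to 3′ on the gene's strand, with the unbroken run of C and T that begins with C at the start in capitals.
EEF2, chr19:3985449-3985478, minus strand: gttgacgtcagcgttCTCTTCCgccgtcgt
EIF3F, chr11:7987322-7987351, plus strand: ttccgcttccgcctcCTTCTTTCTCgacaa
EIF4B, chr12:53006441-53006470, plus strand: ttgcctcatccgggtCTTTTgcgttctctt
EEF1B2, chr2:206159880-206159909, plus strand: ccggtctcttcgggtCCTTTTTCCTCTCTT
EIF1, chr17:41688870-41688899, plus strand: aggcaccgcccctctgccccagtcactgag
EIF3B, chr7:2354812-2354841, plus strand: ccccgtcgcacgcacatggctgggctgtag
A C at the start followed by at least 4 bases that are each C or T was found in 12 of the 53 translation factor genes with an entry (22.6%) and in 6.88% of 13104 genes of the table. Of the 9 genes known as TOP mRNAs, listed below, 5 had an entry, and 4 of these, all shown above, had such a run. Among the 3 genes that passed, 2 had an entry, EIF1 and EIF3B, and neither has such a run at the listed start. Of the 12 genes with a run 0 passed in the authors' deposited table, and of the 902 genes of the table with one 30 passed (3.33%). The 9 genes known as TOP mRNAs were EEF1B2, EEF1D, EEF1G, EEF2, EIF3E, EIF3F, EIF3H, EIF4B and PABPC1. Their log2 fold changes ran from -0.12 to 0.06 in the authors' deposited table with a median of -0.0046. Of the 9, 0 were called, against 3.8% of all genes, and 0 had an unadjusted p under 0.05, against 12.4%. All 9 implied intervals stayed inside a 1.25-fold change.

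Levels ordered the genes in nearly the same way in both groups. Of the 62 genes, 55 kept their rank by average TPM within 2 places, and the largest move was 4 places. In sgControl 6 genes were above 1000 TPM, namely PABPC1, EEF1G, EEF2, EIF5A, EEF1D and EIF4A1. The 62 genes together made up 2.19% of all TPM in sgControl and 2.13% in sgMETTL13. By role the sum was 6222 and 5976 TPM for elongation, 5648 and 5369 for cap binding and recruitment, 4732 and 4535 for eIF3 and 1544 and 1619 for eIF5A and hypusine. It was 1359 and 1412 for start codon selection with EIF6 included, and 1235 and 1151 for eIF2 and eIF2B with EIF2A and EIF2D included. The eIF4E inhibitors had 855 and 922 and termination 284 and 277. For start codon selection the sum of reads went the other way, with 19555 in sgControl and 19492 in sgMETTL13.

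The sign of a small change depends on the scale. In TPM, 45 of the 56 abundant translation factor genes were lower in sgMETTL13 (80.4%), as were 68.1% of all abundant genes. By comparison, 29 of the 56 had a log2 fold change below 0 per the authors' deposited table. The median log2 ratio of TPM was -0.08 among the abundant translation factor genes and -0.06 among all abundant genes. Above 0 were 27 of the 56 by that fold change and 11 by TPM. EIF1, EIF3B, EIF4EBP1 and EIF5A were above 0 on both log2 scales. Many genes with small log2 fold changes above 0, such as EIF3D, EIF4A1, EEF1D and EEF2, had a log2 TPM ratio below 0. Sums of TPM, in which no error is available, are therefore a description only.

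**Figure D5:**
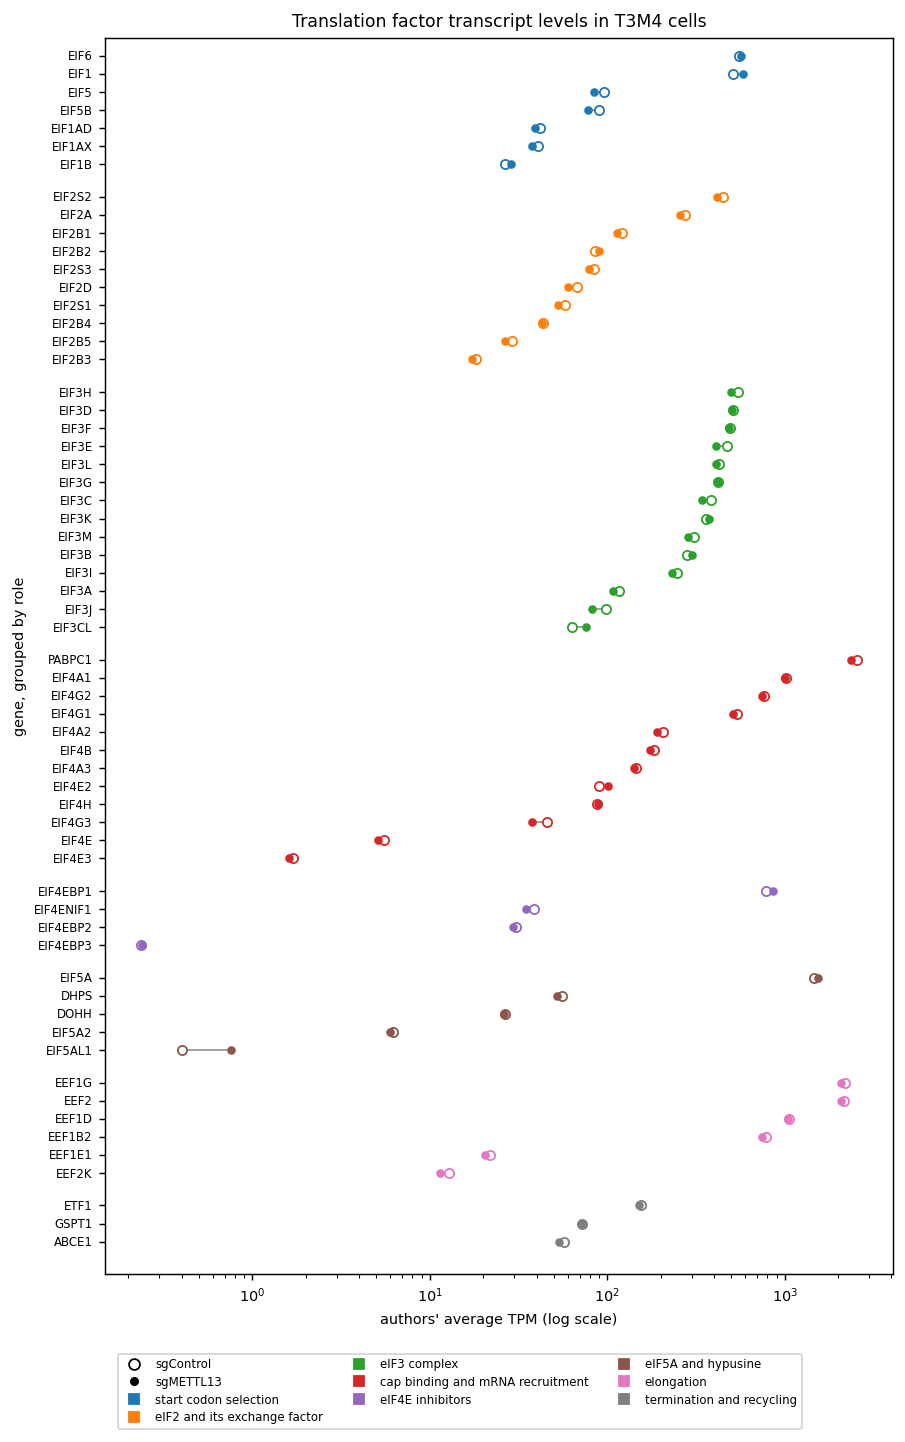
Authors' average TPM (log axis) of 61 translation factor genes in sgControl (open) and sgMETTL13 (filled), grouped by role and ordered by the level in sgControl; EIF2S3B, listed at 0 in sgMETTL13, and EIF1AY are not drawn. Levels run from under 1 TPM for EIF4EBP3 to 2558 for PABPC1, and most open and filled points nearly coincide.

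Of the regulators of these factors outside the list, RPS6KB1, PPP1R15A and EIF2AK2 passed. RPS6KB1, the S6 kinase that mTOR activates and that phosphorylates eIF4B and EEF2K, fell from an authors' average of 25.6 to 18.1 TPM and from 774 to 558 reads. Its log2 fold change in the authors' deposited table was -0.42 (implied bounds -0.59 and -0.25) with an adjusted p of 0.000198. It was the 1 of 10 genes of mTOR and MNK signalling to eIF4F that passed, where 3.8% of all genes did. Of the 6 genes for eIF2 kinases and phosphatase subunits, PPP1R15A and EIF2AK2 passed in the authors' deposited table, where 3.8% of all genes did. PPP1R15A rose (0.52, implied bounds 0.38 and 0.65, adjusted p = 8.61e-11). The interferon-induced kinase EIF2AK2 fell (-0.25, implied bounds -0.40 and -0.10, adjusted p = 0.0330) and lost its call with the GC and length trend removed. Both lists were chosen with earlier results of these data known, so their counts are a description only. In 5 further lists 0 genes passed in the authors' deposited table (3.8% of all genes), and 1 in all had an unadjusted p under 0.05 (12.4%). They were 5 poly(A)-binding partners (LARP4 at -0.15, adjusted p = 0.424), 7 factors of start and re-initiation (the helicase DHX29 at -0.21, adjusted p = 0.191, with an unadjusted p of 0.0144), 7 enzymes of eEF2 diphthamide (DPH1 at 0.16, adjusted p = 0.714), 4 release and rescue factors (SECISBP2 at -0.11, adjusted p = 0.704) and 9 mitochondrial translation factors (GFM2 at -0.15, adjusted p = 0.679).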

How the data were processed

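Titles gave each sample its guide RNA and so its group, and the labels tie the WT columns to sgControl and the KD columns to sgMETTL13. The submitters' processing notes name RSEM 1.2.12, DESeq2, HISAT2 2.0.4 and Bowtie2 2.2.5, and the builds hg38 and GRCh38.p12, without roles or order. The authors deposited average TPM, average FPKM (not used), average estimated counts (expected counts), a log2 fold change, a p-value and an adjusted p (q-value) per gene. The deposited log2 fold change equals the log2 ratio of average reads plus 0.0516 in abundant genes.

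A count model needs values per library, so the deposited comparison over all genes, with a threshold of 0.05, was used in place of the quasi-likelihood test that was first choice. The implied standard error is the size of the log2 ratio over the normal quantile that its two-sided p gives. Depth per library is unknown. Reads were not whole (tolerance 0.005) in 18 of 63 members and 21.4% of genes. GC content and length came from 1 GENCODE 29 transcript per gene, for 97.5% of genes and all 63 members; their trend was a weighted spline with 4 degrees of freedom, tested on simulated data. Members, role lists and partner lists were chosen with earlier results of these data known. A log2 fold change with its adjusted p is given for members that passed and the 2 with the smallest adjusted p per role. Implied standard errors are given for members that passed, and implied intervals for these and some others. Of each partner list, a log2 fold change with its adjusted p is given for those that passed, otherwise for the 1 with the smallest adjusted p. The software was matplotlib 3.10.9, patsy 1.0.2, scipy 1.17.1, pandas 2.3.3, numpy 2.4.6 and Python 3.11.15.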

Additional observations from a re-analysis of the deposited data

How the results depend on the processing

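The 3 calls became 1 at an adjusted p under 0.01 (EIF1) and after removal of the GC and length trend (EIF1), and 0 under Bonferroni. By role, Bonferroni left 0 in start codon selection, eIF3 and the eIF4E inhibitors. The call in eIF3 and that in the eIF4E inhibitors went to 0 at 0.01 and with the trend removed, and the call in eIF3 also with centred fold changes. For eIF5A and hypusine 1 gene, EIF5A, passed at an adjusted p under 0.1 and when adjusted over abundant genes alone. The other role groups kept 0 calls in every setting run. No called gene changed sign in any setting. The median log2 fold change ran from -0.07 (TPM) to -0.0046 over the settings run. No paired analysis was possible because the table holds group averages, and for the same reason no replicate could be left out. Settings added after seeing the data were the sum of EIF3C and EIF3CL, the count among abundant genes and the count without members whose reads are not whole; both counts stayed at 3. Below 205 mean reads no implied interval of the 6 translation factor genes described stayed inside a 1.25-fold change.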
